A study of Mus musculus with 20 samples.

Results

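Among 35080 distinct probe sets, 173 were higher after each of 3 kinds of skin injury in both genotypes of mouse, and these 173 are described here. They were chosen from the measured values: on the log2(intensity + 16) scale, the mean of the 2 arrays of each injured group had to exceed the mean of its unaffected group by at least 1, which is 2-fold. This was required for imiquimod-injured against imiquimod-unaffected skin, for injured against unaffected recovery skin, and for wax-stripped against unaffected recovery skin. It was required in Grhl3 conditional knockout (cKO) and in Grhl3 wild-type (WT) mice, so each member passed 6 thresholds. All 20 arrays took part in the choice, and the rises themselves are therefore given as a description without a test.

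The study hybridised RNA of dorsal epidermis, freed with dispase from the skin of C57B6 mice, to Affymetrix Gene ST arrays. Each of 10 groups had 2 arrays, called biological replicates in the labels. The groups were wax-stripped skin on day 4 in cKO and WT males, imiquimod-injured skin on day 4 in cKO and WT females, injured skin after recovery from imiquimod, on day 8, in cKO and WT males, unaffected skin of the imiquimod experiment on day 4 in cKO and WT females, and unaffected skin of the recovery experiment on day 8 in cKO and WT males. Every title carries Krt14cre, WT animals included. This is Cre recombinase under the keratin 14 promoter, which is active in basal keratinocytes, so a gene deleted by it is lost from keratin-14-expressing epithelia and kept in dermal and immune cells. Wax stripping tears off the outer epidermis with wax tape, and imiquimod is a cream that activates innate immune receptors and is used to model psoriasis. Untouched skin of the wax experiment was not analysed here, and the unaffected recovery skin that serves as its baseline comes from another experiment and another day.

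Epidermis that is wounded or inflamed leaves its normal programme of terminal differentiation. Keratinocytes then divide faster, switch to stress keratins, and make alarmins, antimicrobial peptides and cornified envelope precursors that help to reseal the barrier. Grhl3 is a transcription factor of that differentiation and of barrier repair. Which of the 173 probe sets belong to these gene families could not be read. The row IDs of the deposited table did not carry their annotated genes: probe sets labelled as ribosomal protein genes had a median signal at percentile 54.6 (205 probe sets) and those labelled as olfactory receptors at percentile 52.2 (1035 probe sets), although ribosomal genes are highly expressed in every tissue and olfactory receptors are expected to be silent in skin. For the same reason the tissue could not be checked against its marker genes and no sequence is shown, nor could the Grhl3 probe set be read as a check of the genotypes. The members are numbered here from 1 to 173 by the mean of their 6 rises, the largest first. Member 1 has the row ID 10434128 and member 2 the row ID 10429898, which only label rows of the table and are not gene names.

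The median signal over all probe sets lay between 169 and 199.9 intensity units per array, and the number of arrays, not a count depth, limits the precision. The 4 injured recovery arrays went against their label in 1 respect. Outside the members, 5 probe sets parted the 8 female-labelled arrays from 8 male-labelled ones (wax-stripped skin and unaffected recovery skin) with gaps of 3.67 or more in log2 units. In each of the 5, the injured recovery arrays, although labelled male, sat with the female-labelled ones. The counts of the wax genotype test and of wax-stripped against imiquimod-injured skin are also given without these arrays. Without their thresholds, 197 probe sets passed the imiquimod and wax conditions, and the 173 members are part of these 197. Whether this mismatch took part in any result was not tested.

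The wax threshold was passed by the fewest probe sets. At least 2-fold in both genotypes, 538 probe sets rose with imiquimod (1.53% of 35080), 542 were higher in injured recovery skin (1.55%) and 350 were higher after wax stripping (0.998%). The 173 that passed all of them, 0.493% of the table, made up 32.2% of the imiquimod list, 31.9% of the recovery list and 49.4% of the wax list. The wax and recovery comparisons share the unaffected recovery arrays, so these shares were not tested. Most rises were moderate. The mean of the 6 rises had a median of 1.79 on the log2 scale, a fold of 3.47, and ran from 1.12 to 6.26, folds of 2.18 and 76.4. It was under 2 in 98 members, at least 3 in 35 and at least 5 in 7.

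**Figure D1:**
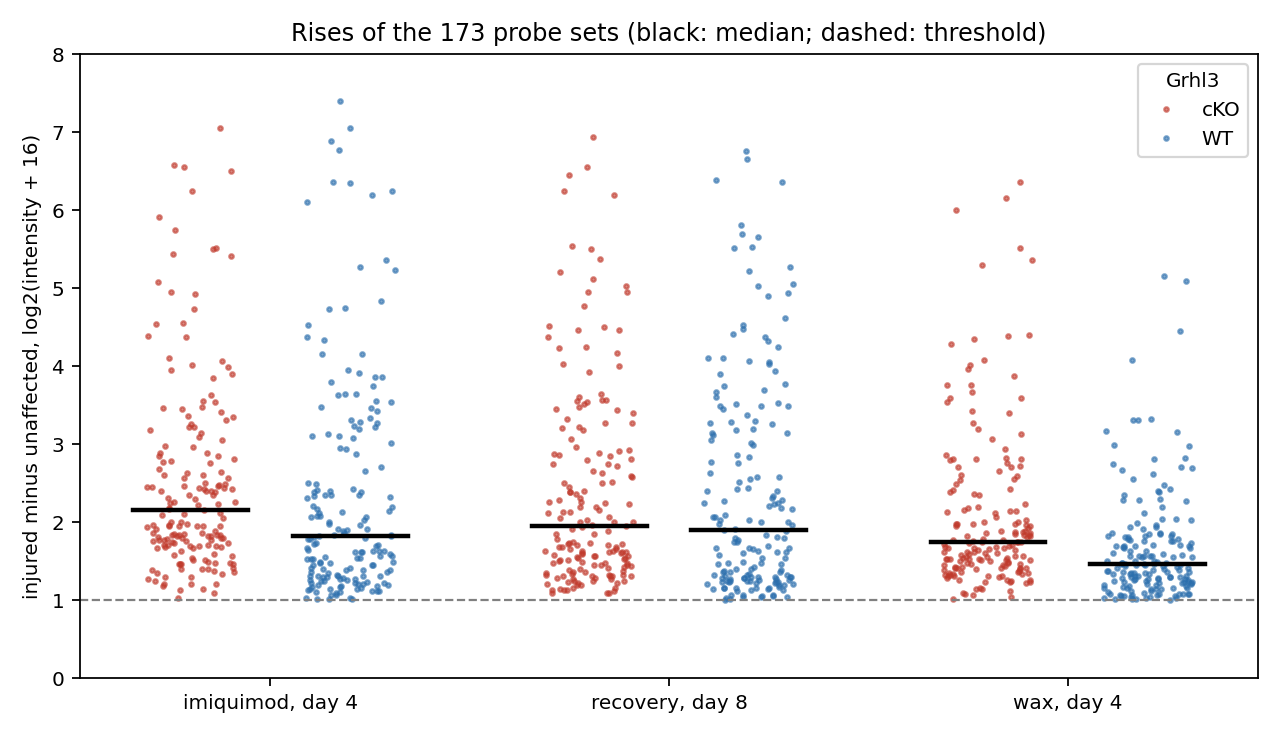
Rise of each of the 173 probe sets on the log2(intensity + 16) scale for the imiquimod, recovery and wax comparisons, cKO and WT side by side. Black bars are medians and the dashed line is the threshold of 1 that chose the members; the wax rise in WT has the lowest median, 1.46.

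In cKO skin the median rise was 2.16 with imiquimod, 1.95 in recovery skin and 1.74 after wax stripping. In WT skin these medians were 1.83, 1.90 and 1.46. The plot of all rises shows the WT wax values packed most closely above the threshold. Wax stripping gave the smallest of the 3 rises in 90 members in cKO and in 93 members in WT skin. The wax rise was larger in cKO than in WT skin in 150 of 173 members, the imiquimod rise in 127 and the recovery rise in 98. The rule used all of these rises, so nothing is read from these counts. The largest single rise in cKO skin was that of member 7 with imiquimod, at 7.05, and in WT skin that of member 2 with imiquimod, at 7.40.

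The threshold ran through a dense region. Within 0.1 of it, by the lowest of the 6 rises, lay 44 members and 47 probe sets outside. The members nearest to it were member 57, whose recovery rise in WT was 1.0031, member 98 with a WT wax rise of 1.0036 and member 53 with a WT wax rise of 1.0091. The 3 nearest outside had lowest rises of 0.9994 and 0.9993, both after wax in WT skin, and 0.9976, with imiquimod in WT skin. The first of these had a median rise of 3.80, so a probe set just outside could exceed most members in its other rises.

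Members were of middling level in unaffected skin and bright in injured skin. Their mean over the 12 injured arrays had a median of 984 intensity units, at percentile 85.8 of the table, and over the 8 unaffected arrays a median of 209, at percentile 52.1. Across members the injured mean ran from 116 to 8356 and the unaffected mean from 18.1 to 1786. In 150 members every injured array was above every unaffected array, which held for 3.88% of all probe sets; the rule used these contrasts, so nothing is read from the difference. In the other 23, at least 1 injured array lay among the unaffected ones, and wax-stripped WT skin is an example in members 39 and 40 described below. Because the arrays measure whole epidermis, more cells of a type and more RNA per cell cannot be told apart.

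Replicate arrays were closest in wax-stripped WT skin and furthest apart in unaffected skin. The median within-group SD of the members was 0.06 on the log2 scale in wax-stripped WT skin, 0.36 in unaffected imiquimod cKO skin and 0.26 in unaffected imiquimod WT skin. Over all groups it was 0.15 for members and 0.09 for all probe sets. Of the unaffected imiquimod cKO arrays, replicate 1 had a member median of 254 intensity units and replicate 2 of 168. For comparison, the medians of the 12 injured arrays lay between 576 and 1238.

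The member with the largest mean rise, member 1, was low in all 8 unaffected arrays and among the brightest signals in injured skin. It read 7007 and 5911 intensity units in wax-stripped cKO and 2887 and 2853 in wax-stripped WT skin. Imiquimod-injured skin read 9093 and 8865 in cKO and 9033 and 9112 in WT, and injured recovery skin 8700.3 and 8388 in cKO and 8130.1 and 8205 in WT. Unaffected imiquimod skin read 185 and 53.9 in cKO and 97.9 and 44.4 in WT, and unaffected recovery skin 39.8 and 132 in cKO and 47.2 and 88.4 in WT. The injured and unaffected arrays did not overlap, and wax-stripped WT skin was the lowest of the injured groups. Its 6 rises lay between 5.15, for wax in WT, and 6.78, for imiquimod in WT.

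Member 2 was nearly off in unaffected skin, at 70.3 and 6.24 in cKO and 9.15 and 4.75 in WT imiquimod skin and at 6.95 and 30.1 in cKO and 6.51 and 10.8 in WT recovery skin. It reached 4009.6 and 3871 in cKO and 3376 and 4374 in WT imiquimod-injured skin and 4243 and 3723 in cKO and 2484 and 2799 in WT injured recovery skin. After wax stripping it read 2906 and 2420.4 in cKO skin, close to these levels, and 217 and 238 in WT skin, far below them. Members 3 and 4 had the order of groups of member 1 in wax-stripped skin, with cKO above WT. Member 3 read 5919.6 and 5402 in wax-stripped cKO and 2612 and 2441 in wax-stripped WT skin, with 31.4 and 148 in unaffected recovery cKO and 45.9 and 73.2 in unaffected recovery WT skin. Member 4 read 3939 and 3499 and, in WT, 1328 and 1269 after wax stripping, with 36.7 and 111 in unaffected recovery cKO and 29.6 and 62.8 in unaffected recovery WT skin. Over the 20 arrays members 1 and 3 correlated at r = 0.999, the closest likeness either had to any member.

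Member 5 had the widest spread of rises, 5.42 between the largest and the smallest. Its wax-stripped arrays read 2140.4 and 1311 in cKO and 87.6 and 139.9 in WT skin, while imiquimod-injured skin read 3929.7 and 3488 in cKO and 2882 and 4250.0 in WT. Unaffected recovery skin read 23.5 and 31.2 in cKO and 3.9 and 69.1 in WT, so the rise of 1.63 in wax-stripped WT skin rests in part on how far its baseline arrays lie apart. Member 6 read 2041 and 1616 in wax-stripped cKO and 573 and 533 in wax-stripped WT skin, against 74 and 137 in unaffected recovery cKO and 42.9 and 52.2 in unaffected recovery WT skin. Member 7, with the second widest spread at 5.23, was highest with imiquimod, lower in injured recovery skin and lowest after wax stripping in both genotypes. It read 7939 and 9517 in imiquimod-injured cKO skin, 2772 and 2365 in injured recovery cKO skin and 1387 and 931 in wax-stripped cKO skin. Its WT arrays read 6627 and 11511 with imiquimod, 1837 and 753 in injured recovery skin and 182 and 152 after wax stripping.

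**Figure D2:**
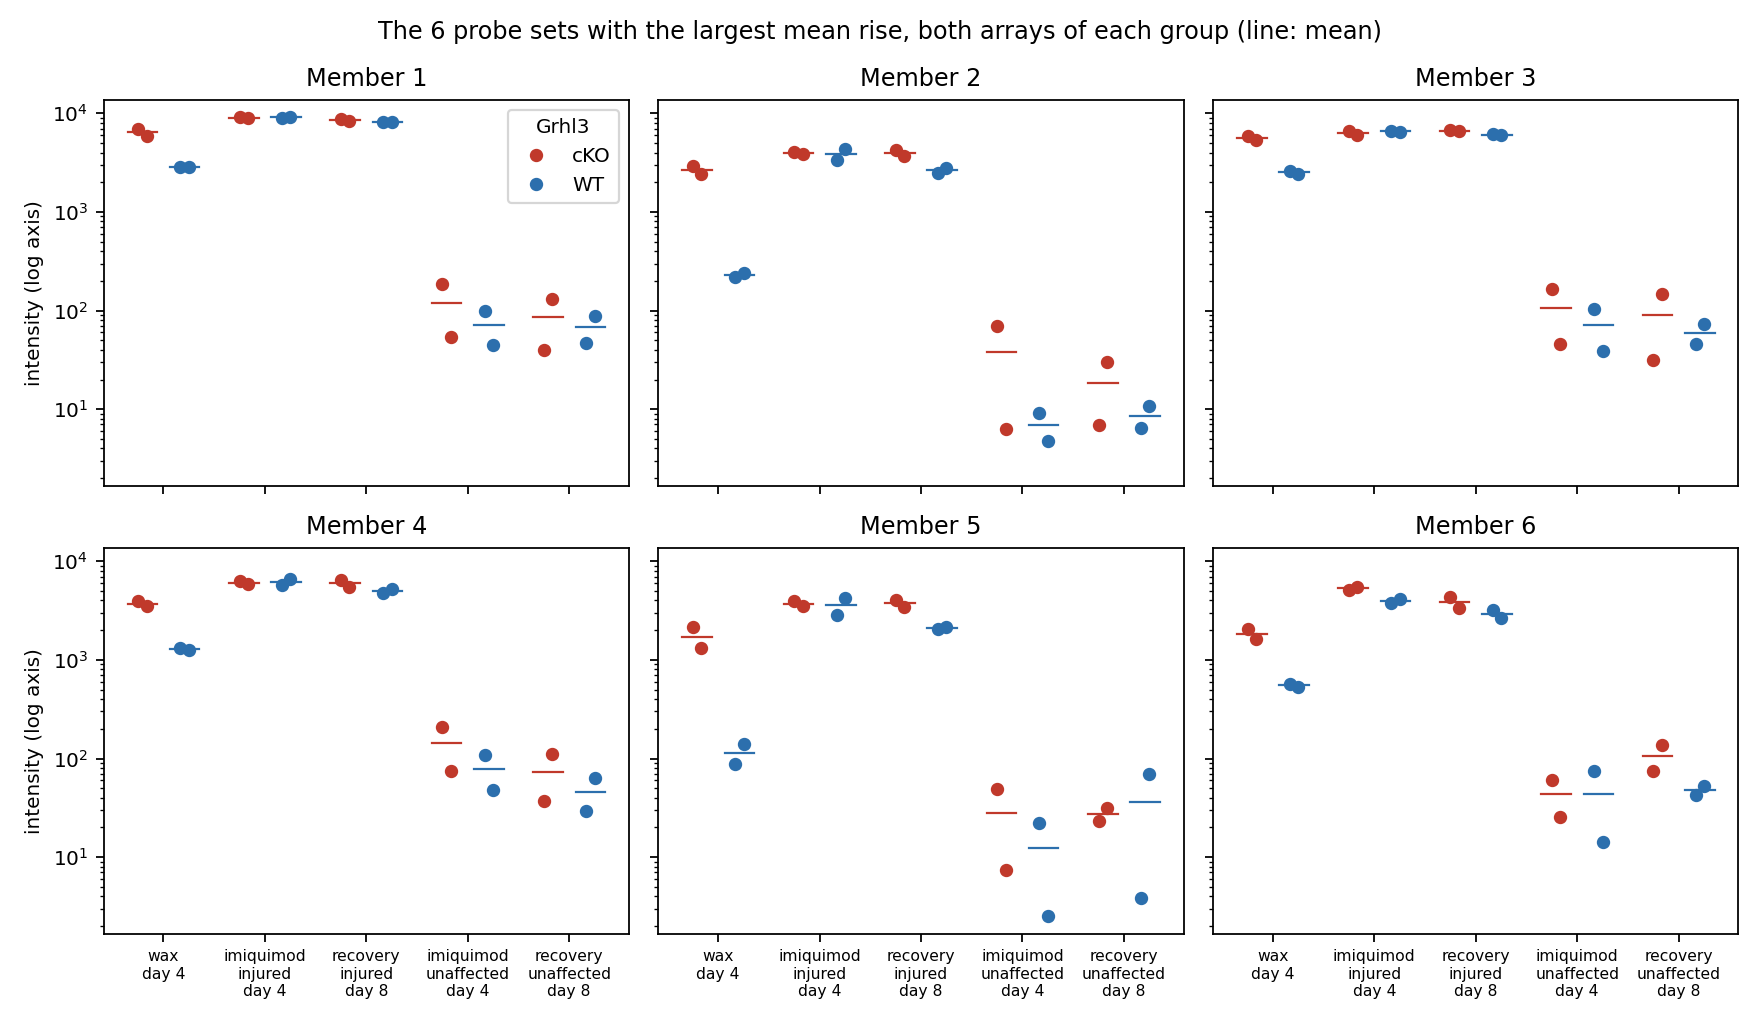
Intensity (log axis) of members 1 to 6 in both arrays of all 10 groups, cKO red and WT blue, with the group mean as a line. Injured groups are on the left and unaffected groups on the right; in all 6 panels wax-stripped WT skin is the lowest injured group, and in member 5 it reads 114 on average.

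The plot of members 1 to 6 shows similar levels in imiquimod-injured and injured recovery skin in members 1, 3 and 4. In imiquimod-injured cKO skin member 1 averaged 8979 ± 162 units, member 3 6366 ± 434 and member 4 6081 ± 360 (SD, n = 2 each). All of these are below the highest value in the table, 49782. At the other end of the list, members 172 and 173 passed each threshold by little. Member 172 read 206 and 231 in wax-stripped cKO and 207 and 228 in wax-stripped WT skin, against 74.7 and 82.1 in unaffected recovery cKO and 62.5 and 106 in unaffected recovery WT skin. Its 6 rises lay between 1.02 and 1.31. Member 173, with rises between 1.02 and 1.24, was brighter throughout, at 1221 and 1295 in imiquimod-injured cKO and 1070.4 and 1103 in imiquimod-injured WT skin, against 600.1 and 520.1 in unaffected cKO and 481 and 582 in unaffected WT skin. Every rise had to be at least 1 and these members have the smallest mean rise, so their rises could differ little. Nothing is read from how even they are.

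The brightest members in injured skin were not those with the largest rises. Member 49, with the highest mean over the injured arrays (8356), read 8326 and 7606 in wax-stripped cKO and 5855 and 6112 in wax-stripped WT skin. Its baseline was high and uneven, at 882 and 3753 in unaffected recovery cKO and 614 and 1315 in unaffected recovery WT skin. Member 22 read 15022 and 14811 in imiquimod-injured cKO and 12342 and 17110.2 in imiquimod-injured WT skin, against 618 and 352 in unaffected cKO and 558 and 683 in unaffected WT skin. The dimmest, member 87, reached only 114 and 83.2 in wax-stripped cKO and 78 and 88.9 in wax-stripped WT skin, against 17.1 and 24.1 in unaffected recovery cKO and 11.9 and 25.1 in unaffected recovery WT skin. The next dimmest, member 118, read 189.6 and 156 in wax-stripped cKO and 164 and 167 in wax-stripped WT skin, with unaffected recovery arrays at 42.4 and 43.8 in cKO and 50.1 and 51.3 in WT. On the log2(intensity + 16) scale the rise of so dim a probe set is understated.

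Most members fell into 3 patterns when they were grouped by the correlation of their profiles over the 20 arrays (average linkage, cut at a mean r of 0.9). The grouping used the same arrays, wax-stripped ones of both genotypes included. It is a description, and so are the counts by pattern given below. Pattern A held 62 members, with the largest rises: medians of 3.16 with imiquimod, 3.21 in recovery and 2.62 after wax in cKO skin, and of 3.29, 3.49 and 1.73 in WT skin. Members 1 to 6 belong to it. Its median level in wax-stripped skin was 1385 intensity units in cKO and 680 in WT, while imiquimod-injured skin had 2543 in cKO and 2496 in WT.

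Pattern B held 56 members with small and even rises. Their medians in cKO skin were 1.80 with imiquimod, 1.42 in recovery and 1.57 after wax, and in WT skin 1.33, 1.28 and 1.44. Wax-stripped skin read 516.7 in cKO and 517 in WT, so the genotypes had almost the same median there. Pattern C held 28 members, among them members 7 and 22, with the highest levels under imiquimod. Its median level was 2270.4 in imiquimod-injured cKO and 2052 in imiquimod-injured WT skin, 1105 in injured recovery cKO and 744 in injured recovery WT skin, and 902 in wax-stripped cKO and 561 in wax-stripped WT skin. The remaining 27 members, in small groups, included some with their highest levels in recovery skin, such as members 29, 52 and 89.

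**Figure D3:**
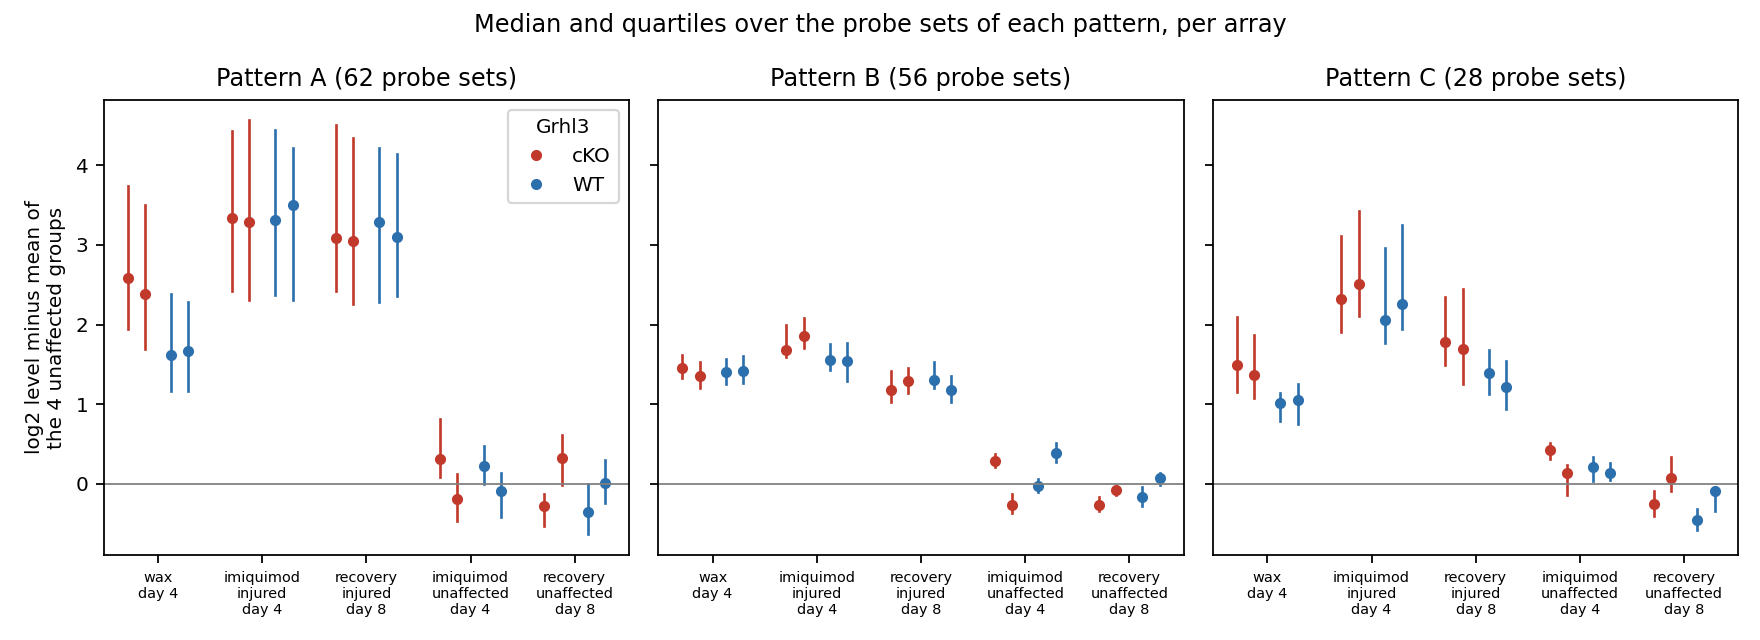
Median (point) and quartiles (line) of the log2 level in each array, relative to the mean of the 4 unaffected groups, over the members of patterns A, B and C; cKO red, WT blue. In pattern A the wax-stripped cKO arrays lie above the wax-stripped WT arrays, and in pattern B the wax-stripped arrays of the genotypes lie together.

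Correlations over all 20 arrays are raised by the choice of the members, since all of them had to be high in the same arrays. Within the 12 injured arrays alone, pairs of members had a median r of 0.49 and 79.6% of pairs were above 0, against 49.7% of all pairs of the 26310 probe sets with more than a low signal. Within the 8 unaffected arrays the median was 0.35 and 77.2% of member pairs were above 0, against 51.1% of all pairs. The rule favoured low unaffected recovery values, so the choice of members can raise the unaffected correlations too. How far it did was not tested. In pattern B the median r was 0.82 over the injured and 0.77 over the unaffected arrays, in pattern A 0.79 and 0.39, and in pattern C 0.89 and 0.61. The pattern plot gives these profiles array by array. These values are over few arrays, which pairs of members share.

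Many members had a close copy of their profile among the others. Over the 20 arrays 158 had a partner at r over 0.95 and 59 a partner at r over 0.99. Members also lay close to each other in the table more often than other rows did. A further member lay within 10 rows for 50 of them, 28.9%, whereas 8.06% of all other rows lay that near to a member. Members 1, 4 and 5 are neighbours in this sense, as are members 2 and 7 and members 19, 39 and 40. The profiles of such neighbours correlated at r between 0.75 and 0.99 (median 0.96), but for only 3 of the 50 was the neighbour in the table also the member with the most similar profile. Since the row IDs did not carry their annotated genes, no gene cluster can be named.

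The injured skins were then compared with each other directly, genotypes averaged. The contrasts with imiquimod-injured skin were not those of the rule, although the rule set a floor under the level of each injured skin. Each equals the difference of 2 rises of the rule plus the difference between the 2 unaffected skins. Low unaffected recovery values let a probe set pass with lower wax-stripped and injured recovery levels. The choice of members can therefore shift the counts below, and by how much was not tested. The difference between wax-stripped and injured recovery skin equals the difference of 2 rises that the rule used, and it is given as a description. All were fitted with limma over all 20 arrays and adjusted by Benjamini-Hochberg over 26310 probe sets. Of the members, 172 had passed the filter on low signal, which used the mean of all arrays, and 1 had not. In wax-stripped against imiquimod-injured skin, 113 members were lower and 3 higher, 65.7% and 1.74% of the 172. Among all probe sets, 19.5% were lower and 21.5% higher, 41.1% in either direction. The median difference of the members was -0.60, against -0.01 over all probe sets. Without the injured recovery arrays in the fit, 110 members were lower and 2 higher. Wax-stripped skin was labelled male and imiquimod-injured skin female, so injury and labelled sex cannot be told apart here.

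The members with the largest deficit after wax stripping were 13 and 7. Member 13 read 308 and 268 in cKO and 114 and 148 in WT wax-stripped skin, against 3521 and 3740.3 in cKO and 3441 and 5662 in WT imiquimod-injured skin. All 4 wax arrays were below all 4 imiquimod arrays, a difference of -4.25 ± 0.19 (SE; limma adjusted p = 9.63e-09). For member 7, whose values are given above, it was -4.25 ± 0.25 (SE; limma adjusted p = 6.22e-08). In members 29 and 125 the order was turned. Member 29 read 4535 and 1672 in cKO and 785 and 689.9 in WT wax-stripped skin, against 1709 and 654 in cKO and 825 and 127 in WT imiquimod-injured skin. Its arrays overlapped, and the difference of 1.24 ± 0.46 (SE; limma adjusted p = 0.0454) was no longer called in 19 alternatives, with an adjusted p of 0.0672 without the 4 injured recovery arrays and of 0.206 without imiquimod-injured WT replicate 2. Member 125 read 851 and 952 in cKO and 950.4 and 915 in WT wax-stripped skin, against 463 and 495 in cKO and 211 and 814 in WT imiquimod-injured skin. The difference was 1.01 ± 0.34 (SE; limma adjusted p = 0.0282), without overlap, and 1 of the imiquimod-injured WT arrays was far below the other.

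Between wax-stripped and injured recovery skin the members had a median difference of -0.37, with 55 of 172 above 0. The fit called 77 lower and 6 higher after wax stripping, where 14.0% of all probe sets were lower and 10.4% higher, 24.5% in either direction. Since the rule used both rises, nothing is read from these counts. Both skins were labelled male, but the injured recovery arrays did not follow that label, as described above. The largest deficits were those of member 5 (-2.61 ± 0.41, SE) and member 52. Member 52 read 925 and 824 in cKO and 353 and 347 in WT wax-stripped skin, against 4045 and 3578 in cKO and 3171 and 2154 in WT injured recovery skin, a difference of -2.47 ± 0.20 (SE). In imiquimod-unaffected skin it read 1141 and 1057 in cKO and 504 and 1128 in WT, above its wax-stripped arrays of the same genotype. The unaffected recovery arrays, the baseline of its wax rise, averaged 189 ± 55.6 in cKO and 102 ± 2.71 in WT (SD, n = 2 each). The median difference was -1.01 in pattern A, with 0 of 62 members above 0, and 0.13 in pattern B, with 48 of 56 above 0. Member 124 of pattern B read 1719 and 1675 in cKO and 1489 and 1612 in WT wax-stripped skin against 968 and 1212 in cKO and 1048 and 1259 in WT injured recovery skin, a difference of 0.53 ± 0.12 (SE), and member 148 differed by 0.48 ± 0.13 (SE).

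Injured recovery skin on day 8 was lower than imiquimod-injured skin on day 4 in 77 members and higher in 18, 44.8% and 10.5% of the 172. Among all probe sets 16.2% were lower and 22.5% higher, 38.6% in either direction, and the medians were -0.38 for members and -0.00 for all. No member of pattern B or C was called higher, whereas 40 of 56 and 25 of 27 fitted were called lower, and pattern A was split into 9 higher and 10 lower. Member 36 read 1089 and 1494 in cKO and 1274 and 1355 in WT injured recovery skin, against 6212 and 8265 in cKO and 4745 and 9596 in WT imiquimod-injured skin (-2.41 ± 0.22, SE; limma adjusted p = 4.93e-06). Member 7 followed with -2.32 ± 0.25 (SE; limma adjusted p = 2.11e-05). In the opposite direction, member 29 read 6620.0 and 4862 in cKO and 2385 and 2738 in WT injured recovery skin, above all 4 imiquimod-injured arrays given above (2.65 ± 0.46, SE; limma adjusted p = 0.000629). Member 89 read 517 and 476 in cKO and 469 and 354 in WT injured recovery skin, against 129 and 153 in cKO and 132 and 110.3 in WT imiquimod-injured skin (1.67 ± 0.12, SE; limma adjusted p = 7.87e-07). Labelled sex differs between these skins too, although the 5 probe sets described above did not part them.

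**Figure D4:**
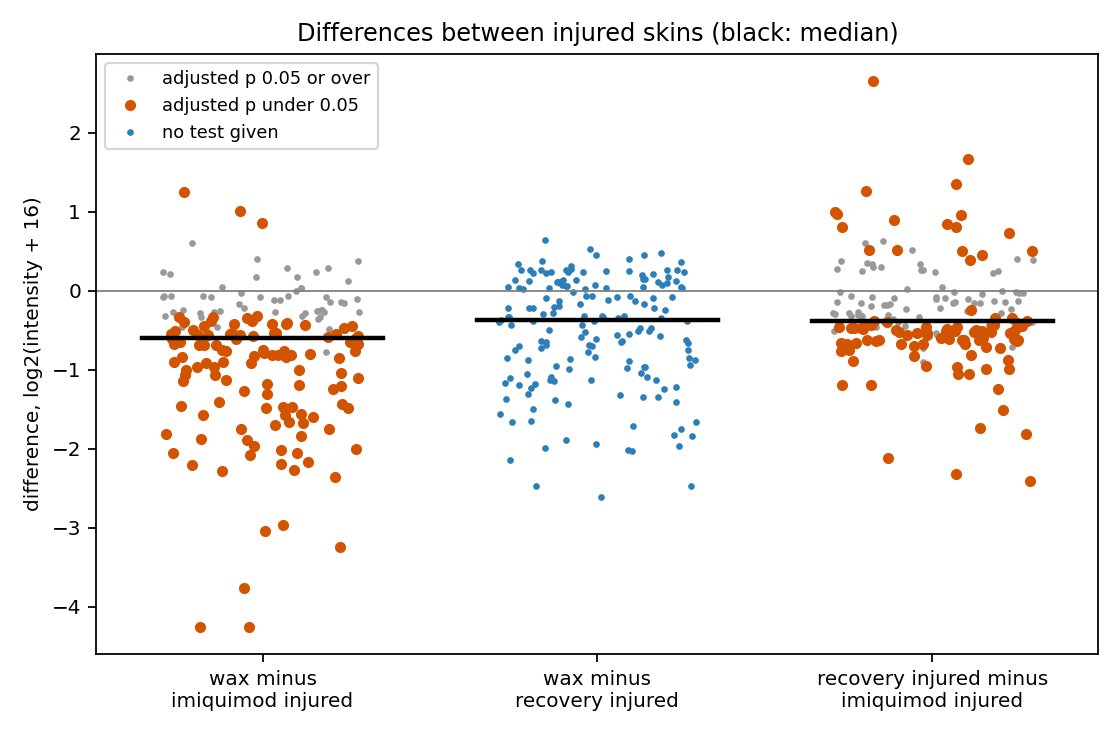
Difference between injured skins, genotypes averaged, on the log2(intensity + 16) scale for the 172 members fitted; orange points passed a limma adjusted p of 0.05, grey points did not, blue points have no test, and black bars are medians. The medians are -0.60, -0.37 and -0.38, and the points called in wax against imiquimod skin lie almost all below 0.

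The median differences between injured skins had the same sign in each genotype. They are given as a description, since the members were chosen from the same values. The median difference between wax-stripped and imiquimod-injured skin was -0.55 in cKO and -0.69 in WT, and that between wax-stripped and injured recovery skin -0.22 in cKO and -0.43 in WT. Injured recovery skin stood below imiquimod-injured skin by a median difference of -0.41 in cKO and -0.32 in WT. The plot of differences between injured skins shows that single members departed from these medians by several units on the log2 scale.

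The rule set no threshold on genotype, since each threshold compared injured with unaffected skin of the same genotype. Even so, the genotype difference in an injured skin equals the difference of 2 rises of the rule plus that of the matching unaffected skins. The choice of members can therefore shift the genotype counts, and by how much was not tested. The tests compare cKO with WT levels within a condition. No test subtracted the genotype difference of unaffected skin, so the change from unaffected to injured skin was not compared between genotypes. After wax stripping, 17 of the 172 members were higher in cKO than in WT skin and 0 were lower, 9.88% of the members. Among all 26310 probe sets 0.194% were higher and 0.0760% lower, 0.270% in either direction. At an unadjusted p under 0.05 there were 55 members, while 6.89% of all probe sets passed that threshold. The median difference was 0.22 for members and 0.01 for all probe sets, and 145 of the 172 were above 0, against 52.0% of all probe sets. The 17 differences lay between 1.01 and 3.73 on the log2 scale, so all were at least 2-fold. Without the 4 injured recovery arrays 14 members were called, all of them among the 17. The count was 6 without wax-stripped cKO replicate 1, 8 without wax-stripped WT replicate 2 and 10 without wax-stripped WT replicate 1. Of the 17, 11 belonged to pattern A, 4 to pattern C and 0 to pattern B, patterns that were formed from these same arrays.

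The largest difference was that of member 5, 3.73 ± 0.58 (SE; limma adjusted p = 0.0118), with the wax values given above. Its call was lost with a pseudocount of 1 (adjusted p = 0.275) and without any 1 of 3 of the 4 wax arrays. Member 8 read 8858 and 8064 in wax-stripped cKO and 661 and 843 in wax-stripped WT skin (3.47 ± 0.37, SE; limma adjusted p = 0.000462). In unaffected recovery skin it read 103 and 343 in cKO and 128 and 142 in WT. Its injured recovery arrays read 9632 and 9598 in cKO and 7826 and 7322 in WT, and its imiquimod-injured arrays 10708 and 10065 in cKO and 10676 and 10659 in WT. Wax-stripped cKO skin was thus somewhat below injured recovery skin of its own genotype and above that of WT. Wax-stripped WT skin was far below both.

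Member 2 differed by 3.46 ± 0.45 (SE; limma adjusted p = 0.00272) and member 7 by 2.66 ± 0.36 (SE; limma adjusted p = 0.00398). Member 47 was bright in both genotypes, at 8929.7 ± 94.9 units in wax-stripped cKO and 1753 ± 0.783 in wax-stripped WT skin (SD, n = 2 each; difference 2.34 ± 0.24, SE; limma adjusted p = 0.000275). Its unaffected imiquimod arrays read 3002 and 3186 in cKO and 1490.1 and 985 in WT, so wax-stripped WT skin was above the unaffected imiquimod arrays of its own genotype and below those of cKO. The smallest difference among the 17 was that of member 43, which averaged 1147 ± 19.4 units in wax-stripped cKO and 563 ± 35.3 in wax-stripped WT skin (SD over 2 arrays; limma adjusted p = 0.033). Members 1 and 3, the brightest of the first 6, did not pass the test, although both wax-stripped cKO arrays lay above both WT arrays, with differences of 1.16 ± 0.47 and 1.16 ± 0.53 (SE) and limma adjusted p of 0.619 and 0.712. Their SEs pool the spread of all 10 groups, among them the uneven unaffected arrays given above. Missing the threshold is therefore not read as equal levels in wax-stripped skin.

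**Figure D5:**
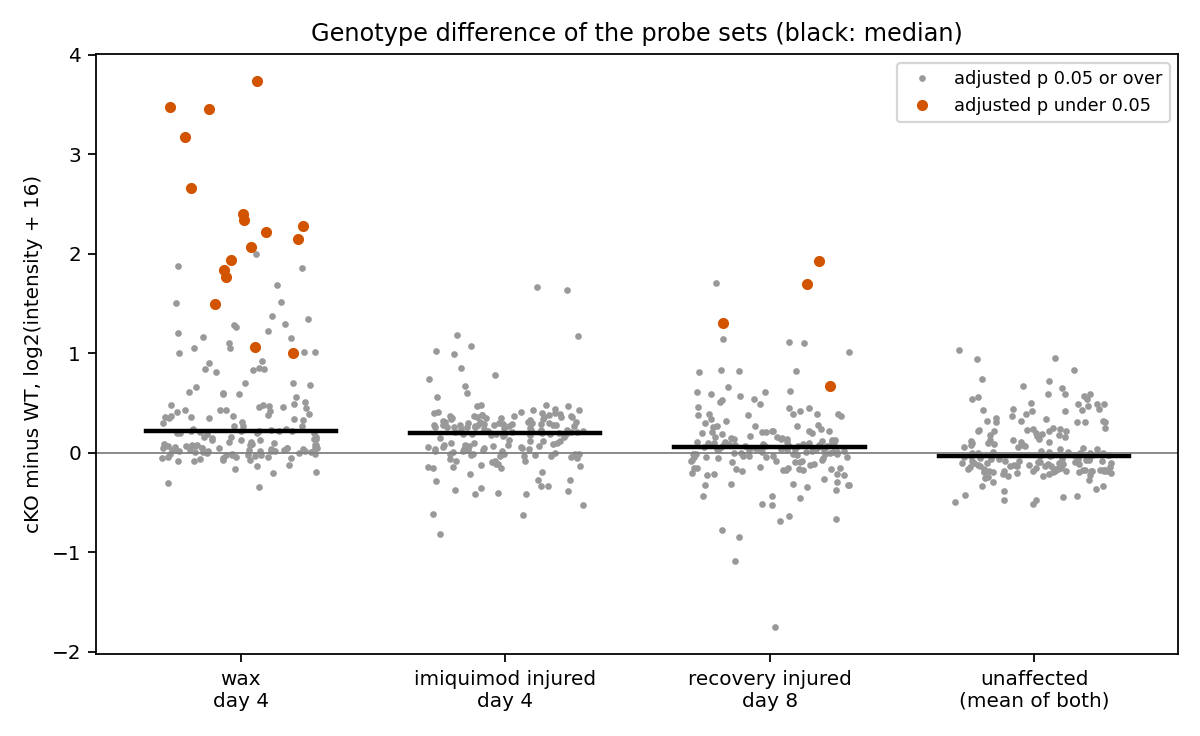
Difference cKO minus WT on the log2(intensity + 16) scale for the 172 members fitted, in wax-stripped, imiquimod-injured, injured recovery and unaffected skin (mean of both unaffected conditions); orange points passed a limma adjusted p of 0.05, black bars are medians. The 17 members called after wax stripping are all above 0.

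In imiquimod-injured skin no member differed between genotypes by limma (0 of 172, with or without the injured recovery arrays), while 0.0760% of all probe sets passed with a higher and 0.0608% with a lower value in cKO, 0.137% together. At an unadjusted p under 0.05 there were 23 members, and 11.6% of all probe sets. The median difference was 0.20, with 129 of 172 members above 0. Over all probe sets the median was 0.02, with 54.2% above 0. Pattern B had a median of 0.28 and was above 0 in 55 of its 56 members, with 0 called. In unaffected skin, both conditions averaged, 0 members and 0.00% of all probe sets were called, and the members' count was also 0 without the injured recovery arrays. At an unadjusted p under 0.05 there were 29 members, and 5.45% of all probe sets. The median there was -0.03, with 77 of 172 members above 0, against 47.9% of all probe sets. Of the members called after wax stripping, all except members 7 (-0.02) and 57 (-0.18) were above 0 in unaffected skin too. The largest of these values were 1.03 ± 0.26 in member 8 and 0.95 ± 0.17 in member 47 (SE). How much of the difference after wax stripping was already present in unaffected skin was not tested. In pattern B 3 of 56 members were above 0, with a median of -0.16. In the plot of genotype differences the members reach 1.67 in imiquimod-injured and 1.03 in unaffected skin, against 3.73 after wax stripping.

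Injured recovery skin had 4 members higher in cKO and 0 lower, 2.33% of the 172, against 0.722% and 0.277% of all probe sets. The median was 0.06 for members and 0.01 for all. Member 114 read 991 and 768 in cKO and 275 and 171 in WT injured recovery skin (1.93 ± 0.34, SE; limma adjusted p = 0.0163), a call that was lost with only these 4 arrays in the fit (adjusted p = 0.0925) and without any 1 of 3 of them (0.0591 to 0.252). Member 57 read 1519.6 and 1289.8 in cKO and 438 and 402 in WT (1.70 ± 0.15, SE; limma adjusted p = 0.000103), and it was also among the 17 members called after wax stripping, at 1004 and 830.5 in cKO and 446 and 411 in WT. With imiquimod it was higher than in either, at 2639 and 2583 in cKO and 2301 and 2887 in WT, and the genotypes overlapped. Members 46 and 71 were the other two, with differences of 1.30 ± 0.23 and 0.67 ± 0.14 (SE; limma adjusted p = 0.0163 and 0.0446). The count of 4 fell without injured recovery WT replicate 2 and without either injured recovery cKO replicate. It rose without either unaffected imiquimod cKO replicate, and the calls there were no longer all higher in cKO.

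Whether the genotype difference itself depended on the injury was tested by setting the difference after wax stripping against the mean of those in imiquimod-injured and injured recovery skin. Rises of the rule enter this contrast too, so the choice of members can shift its count. Here 6 members were called, all with the larger value after wax stripping, 3.49% of the 172, against 0.0684% higher and 0.0152% lower among all probe sets, 0.0836% in either direction. All 6 belonged to pattern A, and in all 62 members of that pattern the value was above 0, with a median of 0.74. The pattern was formed from these same arrays and its members have similar profiles, so nothing further is read from that count. The count was 0 without wax-stripped WT replicate 1 or 2 and 0 without wax-stripped cKO replicate 1. Member 8 had 3.32 ± 0.46 (SE; limma adjusted p = 0.0111). Member 39 had 2.32 ± 0.38 (SE; limma adjusted p = 0.0477) and lost the call with a pseudocount of 1, after quantile normalization and without the filter, and in 16 other alternatives. It read 295 and 212 in wax-stripped cKO and 35.5 and 53.7 in wax-stripped WT skin, with 582 and 622 in cKO and 592 and 741 in WT imiquimod-injured skin and 311 and 530.5 in cKO and 581 and 378 in WT injured recovery skin. Member 40, next to it in the table, read 244 and 202 in wax-stripped cKO and 43.1 and 49.5 in wax-stripped WT skin. Unaffected imiquimod WT skin read 52.7 and 33.3 for member 39 and 40 and 42.5 for member 40, at the level of wax-stripped WT skin, and unaffected recovery WT skin read 7.96 and 17.3 for member 39 and 12.7 and 14.5 for member 40.

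The baselines of the experiments differed for many members. Unaffected recovery skin was lower than unaffected imiquimod skin in 120 members in cKO and in 130 in WT, with medians of -0.18 and -0.26, against medians of 0.08 and 0.04 over all probe sets. No test is given, because low unaffected recovery values helped a probe set to pass 4 of its 6 thresholds. Set against unaffected imiquimod skin instead, wax-stripped skin was at least 2-fold higher in 145 members in cKO and in 125 in WT, with medians of 1.57 and 1.25. Injured recovery skin was at least 2-fold higher than that baseline in 150 members in cKO and 136 in WT, with medians of 1.71 and 1.48. With unaffected imiquimod skin as the baseline of all 3 injuries, 135 probe sets passed, of which 108 are among the 173.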

How the data were processed

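Probe-set intensity on a linear scale was deposited for 35556 probe sets and 20 arrays. The authors' intensity values came from PLIER in Affymetrix Expression Console, per the submitters' processing notes. No version or genome build is named there. Of rows identical on all arrays the first was kept (476 removed). Values were used as deposited, as log2(intensity + 16). Groups, day and sex come from the labels. The constant of 16 damps the noise of dim probe sets and understates their changes.

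Tests used limma 3.58.1 in R 4.3.3 (group means, all 20 arrays, 10 residual degrees of freedom, eBayes without trend) on 26310 probe sets at or above the 25th percentile of mean log2 signal, with Benjamini-Hochberg adjustment and a threshold of 0.05. P-values measure the spread between the 2 arrays of a group, pooled over all 10 groups for each probe set and moderated by eBayes. The spread of unaffected arrays therefore enters the SE of the wax contrasts too. The members' median SD was 0.06 in wax-stripped WT and 0.36 in unaffected imiquimod cKO skin. The fit was tested on simulated data.

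The probe table pairs 21789 IDs with 1 symbol, 1621 with several and does not list 12146; the name check is in the report. The members, tests and alternatives were chosen with earlier results of these data known. Members described singly were fixed by rank: 1 to 6, the last 2, the 2 brightest and dimmest, the 2 with the widest spread of rises, and the 2 largest called differences per test and direction; the others named were chosen after their values were seen. Alternatives were pseudocounts of 1 and 64, quantile normalization, other filters and thresholds, trend and robust settings, only the arrays compared, a replicate block, and leaving out arrays. Means, correlations and plots were made in Python 3.11.15.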

Additional observations from a re-analysis of the deposited data

Results flagged for a closer look

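In 6 members the genotype difference after wax stripping exceeded, by the test of that difference, the mean genotype difference in imiquimod-injured and injured recovery skin. On the log2 scale the excess was 3.32 in member 8, 2.32 in member 39, 2.25 in member 47, 1.97 in member 40, 1.94 in member 19 and 1.85 in member 23, with limma adjusted p between 0.00739 and 0.0477. Both wax-stripped cKO arrays were above both wax-stripped WT arrays in all 6. In unaffected skin, both conditions averaged, all 6 were also higher in cKO, by 0.54 (member 40) to 1.03 (member 8), with no member called. The test did not subtract that difference. Member 19 read 1293 and 1023 in wax-stripped cKO and 295 and 325 in wax-stripped WT skin, with 2394 and 2502 in cKO and 2404 and 2297 in WT injured recovery skin. Member 23 read 1236 and 955 in wax-stripped cKO and 232 and 192 in wax-stripped WT skin, with 1865 and 1824 in cKO and 1344 and 1337 in WT injured recovery skin. Members 19, 39 and 40 lie in neighbouring rows of the table, and members 39 and 40 correlated at r = 0.993 over the 20 arrays. In members 19, 39, 40 and 47 at least 1 injured array lay among the unaffected ones. No group has enough arrays for a search for single outlying arrays.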

How the results depend on the processing

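The number of members was 294 with a threshold of 0.8 and 103 with 1.2; with pseudocounts of 1 and 64 it was 203 and 118, after quantile normalization 189 (169 of them among the 173), and 142 to 199 when an array was left out. The tests kept the 173 members throughout. With any 1 array left out, 6 to 24 members were called for the wax genotype difference, 0 to 2 in imiquimod-injured, 1 to 7 in injured recovery and 0 to 2 in unaffected skin, and 0 to 9 for the difference of genotype differences. The counts were 100 to 126 for wax against imiquimod-injured, 63 to 90 for wax against injured recovery (a description only) and 74 to 102 for injured recovery against imiquimod-injured skin. With a pseudocount of 64, 1 member was called for genotype in imiquimod-injured and 8 in injured recovery skin, 6 higher and 2 lower. With only the arrays of the comparison, 28 were called for the wax genotype difference (15 of the 17 among them) and 22 for the difference of genotype differences, all higher. The replicate number as a block gave 1 call for genotype in imiquimod-injured skin, against 0 without it, and left the other counts within 1.5 times. The numbers do not pair the arrays: deviations of same-numbered arrays correlated at -0.26 to 0.29, over 0.1 in 11 of 45 pairs of groups. No direction of a member named for a test was turned by any alternative. Of 508 such repeats 61 lost the call. Having 2 arrays a group limits the precision, and signals near 16 units or below are compressed.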
